A study of Mus musculus with 18 samples.

Results

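The heat shock chaperones are proteins that keep other proteins folded, and their genes are classic targets of the transcription factor HSF1. The 10 genes described here were taken by exact match of their symbol in the authors' tables, of 10110 genes with a single symbol listed in at least 1 of 3 tables. They fall into 6 genes known mainly for stress induction (Hspa1a, Hspa1b, Dnajb1, Hsph1, Hspb1 and Bag3) and 4 that growing cells already express strongly, called constitutive here (Hspa8, Hsp90aa1, Hspd1 and Hspe1). This division follows common knowledge of the genes and is not a measurement. It was made with earlier results of these data known. Stress also induces Hsp90aa1, Hspd1 and Hspe1, so counts by class rest on where these were placed.

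HSF1 is held inactive by chaperones in unstressed cells. When damaged proteins occupy those chaperones, HSF1 is released, forms trimers and binds heat shock elements, which are inverted repeats of the letters GAA in promoters. The response is known best from heat, and oxidants that damage proteins can also evoke it.

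RNA was measured in 2 immortalized mouse embryonic fibroblast lines, by sequencing of polyadenylated transcripts. One line is labelled eIF2aS51A (S51A here) and carries an alanine in place of the serine of the initiation factor eIF2α that stress kinases phosphorylate. The other is labelled Wild-Type (WT here). S51A cells and WT cells were each left untreated (0 min) or given 500 µM hydrogen peroxide, written H2O2 in the labels, for 15 or 120 min. By the labels there are 18 samples, 3 to a group in 6 groups, although the design text mentions duplicates. With 1 line per genotype, an effect of the allele cannot be told apart from other differences between these lines.

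The tables give 1 FPKM value per gene and group, fragments scaled by the length of the transcript and the size of the library. This scaling is meant to let levels of different genes be set side by side. Neither the spread between samples nor the sequencing depth is known, so values carry no error. All entries of a table passed the authors' test of S51A against WT at that time, with a q-value of at most 0.05. A gene that is not listed was not called, which does not show that its levels were alike. The tables at 0, 15 and 120 min list 7555, 8308 and 6119 genes. Of the fibroblast markers, 9 of 10 were listed in at least 1 table (not Lum), and at 0 min 5 were higher and 3 lower in S51A. The collagen gene Col1a1 was at 1160 FPKM in S51A and 241 FPKM in WT at 0 min, while Vim was at 1075 FPKM in S51A and 1872 FPKM in WT. Thy1 and Dcn were lower in S51A at each time. The 6 fibroblast markers listed at all times summed to 1512 to 2410 FPKM in S51A groups and 421 to 551 FPKM in WT groups, most of it from collagen genes in S51A. Epithelial markers were listed for 1 of 5 (Krt19, at most 21.7 FPKM), endothelial markers for 0 of 4 and leukocyte markers for 1 of 6 (Cd68, at most 1.97 FPKM). The part of these markers in the results was not tested.

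The inducible HSP70 genes Hspa1a and Hspa1b are near-identical copies on chromosome 17 (Hspa1b at chr17:34956429-34959238 and Hspa1a at chr17:34969359-34972156, mm10), with 10120 bases between them. HSP70 binds unfolded stretches of other proteins and releases them again. The 250 bases before each start are shown because this pair had the largest differences between the lines and because the copies are so alike. Capitals mark letters that match a heat shock element of 2 units, GAANNTTC or TTCNNGAA, each of which reads the same on both strands. The Hspa1a stretch is chr17:34972157-34972406 and the Hspa1b stretch is chr17:34959239-34959488, both on the minus strand, from RefSeq on GRCm38.p6.
Hspa1a: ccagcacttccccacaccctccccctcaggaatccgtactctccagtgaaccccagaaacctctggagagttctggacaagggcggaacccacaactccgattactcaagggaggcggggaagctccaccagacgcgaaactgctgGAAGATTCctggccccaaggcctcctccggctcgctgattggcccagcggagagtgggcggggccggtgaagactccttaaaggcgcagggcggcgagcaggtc
Hspa1b: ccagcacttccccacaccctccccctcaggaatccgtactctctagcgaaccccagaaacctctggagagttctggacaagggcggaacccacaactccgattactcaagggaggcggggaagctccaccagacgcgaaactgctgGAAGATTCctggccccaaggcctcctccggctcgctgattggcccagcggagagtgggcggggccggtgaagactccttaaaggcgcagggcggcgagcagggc
The stretches were identical at 247 of 250 positions (98.8%), and each held 1 such element, GAAGATTC, 104 to 97 bases before the start.

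The genes of the mitochondrial folding chamber, Hspd1 (HSP60) and its lid Hspe1 (HSP10), lie head to head on chromosome 1 (Hspd1 at chr1:55077834-55087932 and Hspe1 at chr1:55088148-55091317). Their starts are 215 bases apart, and that stretch (chr1:55087933-55088147, plus strand, the strand of Hspe1) is shown because the same sequence lies upstream of both genes.
Hspd1 and Hspe1: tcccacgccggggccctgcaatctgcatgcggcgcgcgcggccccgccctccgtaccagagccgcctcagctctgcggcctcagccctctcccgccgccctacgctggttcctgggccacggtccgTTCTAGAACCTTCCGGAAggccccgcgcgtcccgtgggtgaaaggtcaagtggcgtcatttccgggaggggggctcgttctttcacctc
The capitals mark overlapping elements, which also make 2 matches to the longer form of 3 units, GAANNTTCNNGAA or TTCNNGAANNTTC. They lie 89 to 72 bases before the Hspe1 start and 144 to 127 bases before the Hspd1 start. RefSeq holds another Hspd1 start at position 55088243, with no match in the 250 bases before it.

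Hspb1, which encodes the small heat shock protein HSP27 (HSP25 in mice), a holder of unfolded proteins, lies at chr5:135887919-135889563. Its upstream 250 bases (chr5:135887669-135887918, plus strand) are shown as the promoter of the inducible gene with the next largest difference between the lines.
Hspb1: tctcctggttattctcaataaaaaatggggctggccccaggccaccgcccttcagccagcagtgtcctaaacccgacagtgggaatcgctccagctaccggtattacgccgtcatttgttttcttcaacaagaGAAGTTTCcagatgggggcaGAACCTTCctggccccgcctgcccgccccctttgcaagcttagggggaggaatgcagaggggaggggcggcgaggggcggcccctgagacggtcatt
They held 2 separate elements of 2 units, 117 to 110 and 97 to 90 bases before the start. RefSeq promoters were found for 8 of the 10 genes. Of these 8 genes, 6 held at least 1 element of 2 units in 250 bases and 2 held the longer form. Those 2 were Hspd1 and Hspe1, which share the same stretch. Hspa1a and Hspa1b are near-identical copies, so the matches are not all separate. A gene was counted if any of its promoters held a match, while the background that follows counts each promoter. Over all 32851 promoters in the table, 12.8% held the shorter form and 0.466% the longer one. Hsph1 held TTCTCGAA, and Bag3 and Dnajb1 held neither form in this window. Such matches describe letters only.

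Before treatment, the 4 listed genes placed in the inducible class were higher in S51A, and the 4 placed in the constitutive class, Hsp90aa1 among them, were lower. Of the 10 genes, 8 were listed at 0 min, 4 as higher and 4 as lower in S51A, where 49.6% of all listed genes were higher and 50.4% lower. The 4 inducible ones had a median log2 ratio of 2.47 and the 4 constitutive ones of -1.12, beside -0.27 for all listed genes. Hsph1 and Bag3 were not listed.

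Hspa1b was at 12.3 FPKM in S51A and 1.20 FPKM in WT, a 10.3-fold difference (q = 0.000118 in the authors' deposited table, the lowest value there, which 4905 genes share). Hspa1a was far lower in both lines, at 1.58 FPKM in S51A and 0.0467 FPKM in WT (q = 0.0152 in the authors' deposited table). Its fold of 33.8 rests on a WT value close to 0. Hspb1 was at 41.1 FPKM in S51A and 13.8 FPKM in WT, a 2.97-fold difference. Dnajb1, which encodes an HSP40 cochaperone that hands unfolded proteins to HSP70 (chr8:83608175-83612653), was at 41.4 FPKM in S51A and 29.2 FPKM in WT, a 1.41-fold difference. With a minimum fold of 2, 3 inducible genes counted as higher, against a background of 22.1% of listed genes.

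The constitutive HSP70 gene Hspa8, which encodes HSC70 (chr9:40801273-40805199), had the highest level of the set, at 760 FPKM in S51A and 1226 FPKM in WT. That is a 1.61-fold lower level in S51A. Hsp90aa1, which encodes the inducible form of HSP90 (chr12:110691036-110696395), was at 244 FPKM in S51A and 484 FPKM in WT. Hspd1 was at 267 FPKM in S51A and 635 FPKM in WT, and Hspe1 at 204 FPKM in S51A and 478 FPKM in WT. These 2 partner genes thus differed by nearly the same factor, 2.38-fold for Hspd1 and 2.35-fold for Hspe1. In both lines the order of levels at 0 min was Hspa8, Hspd1, Hsp90aa1, Hspe1, Dnajb1, Hspb1, Hspa1b and Hspa1a. With no spread between samples, neighbours in that order cannot be separated by a test.

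**Figure D1:**
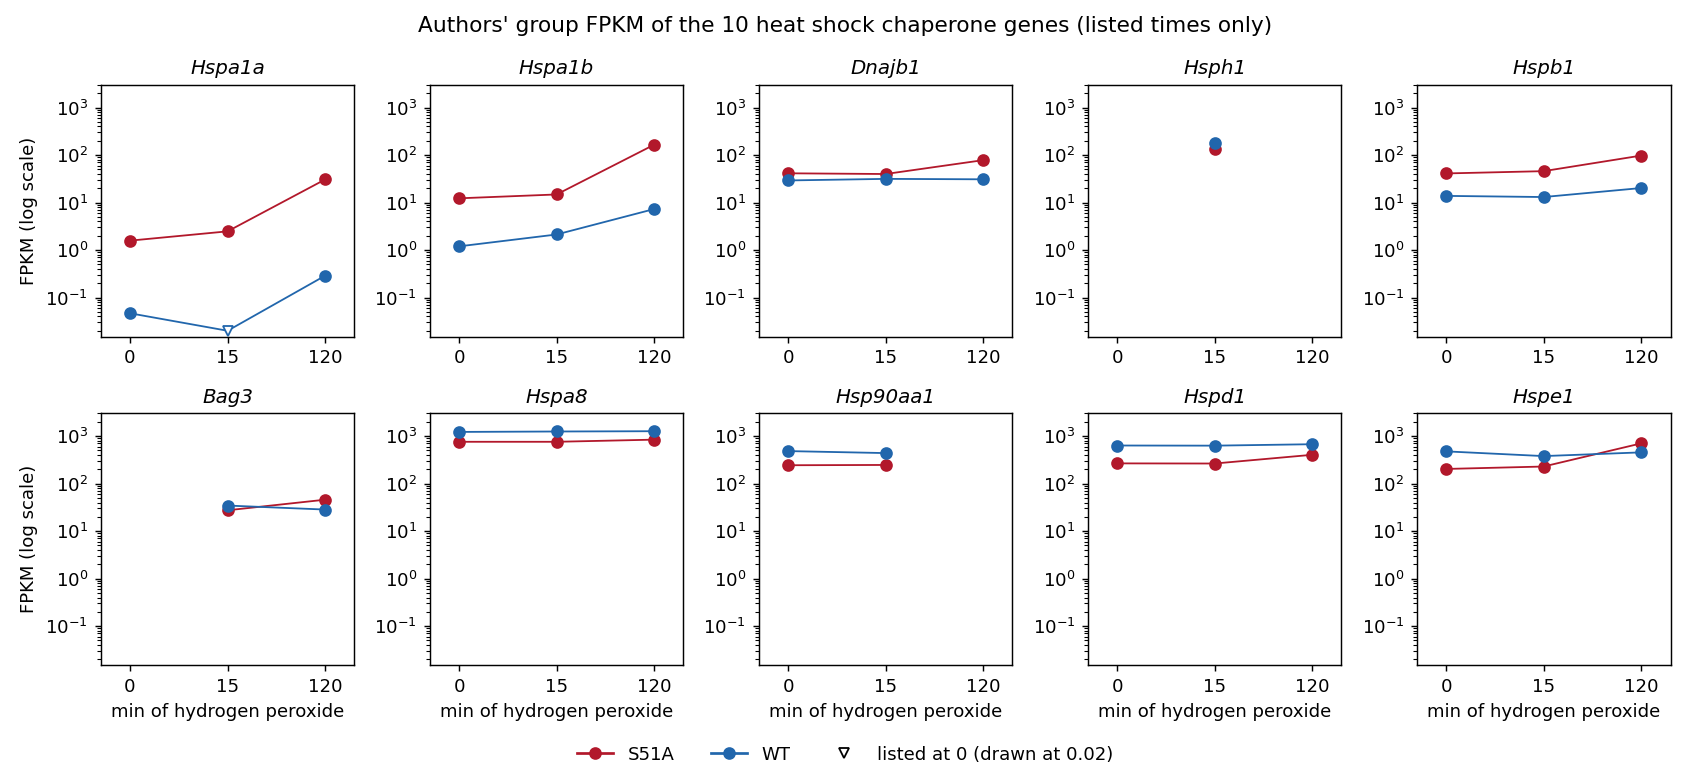
FPKM (log axis) of each of the 10 genes in S51A (red) and WT (blue) at 0, 15 and 120 min of peroxide, with 1 group value per point, no error bars, and no point where a gene was not listed. An open triangle, drawn at 0.02, marks a group listed at 0. At 120 min in S51A, Hspa1a reaches 30.7 FPKM and Hspa1b 165 FPKM, while the Hspe1 lines cross between 15 and 120 min.

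After 15 min all 10 genes were listed, 4 as higher and 6 as lower in S51A, where 49.9% of all listed genes were higher and 50.1% lower. Hspa1b was at 14.8 FPKM in S51A and 2.13 FPKM in WT, a 6.96-fold difference. Hspa1a was at 2.48 FPKM in S51A and was listed at 0 in WT, so no fold is given. Hspb1 was at 45.9 FPKM in S51A and 13.1 FPKM in WT, and Dnajb1 at 39.9 FPKM in S51A and 31.6 FPKM in WT. These 4 genes were on the same side as before treatment, and 3 of them passed a minimum fold of 2, against 20.2% of listed genes.

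The other 2 inducible genes were lower in S51A at 15 min, by 1.32-fold for Hsph1 and 1.26-fold for Bag3, while Dnajb1 was higher by 1.27-fold. Hsph1, which encodes the HSP110 exchange factor of HSP70 (chr5:149616845-149636315), was at 136 FPKM in S51A and 180 FPKM in WT. Bag3, a cochaperone that couples HSP70 to autophagy (chr7:128523583-128546979), was at 27.5 FPKM in S51A and 34.5 FPKM in WT (q = 0.000838 in the authors' deposited table). Of the constitutive genes, Hspa8 was at 760 FPKM in S51A and 1252 FPKM in WT, Hsp90aa1 at 247 FPKM in S51A and 440 FPKM in WT, and Hspd1 at 265 FPKM in S51A and 630 FPKM in WT. Hspe1 was at 229 FPKM in S51A and 380 FPKM in WT, a 1.66-fold lower level. The 4 constitutive genes had a median log2 ratio of -0.78 and the 6 inducible ones of 1.07, beside -0.20 for all listed genes.

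After 120 min every listed inducible gene was higher in S51A. Of 8 listed genes, 6 were higher and 2 lower, where the shares of all listed genes were 50.9% and 49.1%. A difference of at least 2-fold was listed for 4 of the higher genes, against 26.5% of listed genes. Hsph1 and Hsp90aa1 were not listed. The 5 inducible genes had a median log2 ratio of 2.27 and the 3 constitutive ones of -0.59, beside 0.41 for all listed genes.

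Hspa1b was at 165 FPKM in S51A and 7.31 FPKM in WT, a 22.6-fold difference (q = 0.000198 in the authors' deposited table, the lowest there). Hspa1a was at 30.7 FPKM in S51A and 0.289 FPKM in WT, a 106-fold difference over a WT value close to 0. Hspb1 was at 97.7 FPKM in S51A and 20.3 FPKM in WT, a 4.82-fold difference. Dnajb1 was at 78.2 FPKM in S51A and 30.9 FPKM in WT, a 2.53-fold difference. Bag3 was now on the higher side, at 45.9 FPKM in S51A and 28.4 FPKM in WT, a 1.61-fold difference.

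The constitutive genes parted from each other at 120 min. Hspa8 was still lower, at 843 FPKM in S51A and 1269 FPKM in WT (q = 0.0157 in the authors' deposited table). Hspd1 was lower too, at 405 FPKM in S51A and 676 FPKM in WT (q = 0.000198 in the authors' deposited table). Hspe1 was higher, at 704 FPKM in S51A and 455 FPKM in WT, a 1.55-fold difference (q = 0.000870 in the authors' deposited table). The ratio of Hspe1 to Hspd1 FPKM was 0.763 in S51A and 0.753 in WT at 0 min, and 0.865 in S51A and 0.603 in WT at 15 min. At 120 min it was 1.74 in S51A and 0.674 in WT. The levels of the 2 mitochondrial partners thus stood in like proportion in both lines before treatment and not at 120 min. Their transcripts differ in length, 774 bases for Hspe1 and 2423 for Hspd1. The log2 ratio of S51A to WT shifted from 0 to 120 min by a median of 1.43 over genes of up to 1000 bases and 0.10 over genes of 2000 to 3000 bases. The part of length in the change of side of Hspe1 was not tested.

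**Figure D2:**
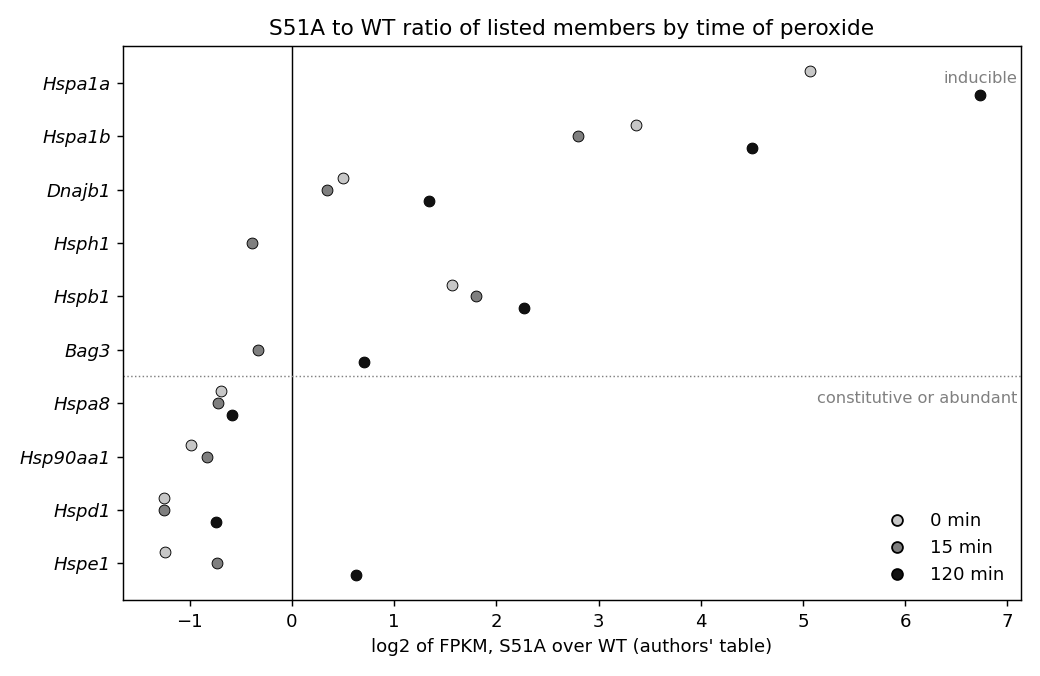
Log2 ratio of FPKM, S51A over WT, of the listed genes (rows) at 0, 15 and 120 min (light to dark points), with 1 value per point and no error bars. Hspa1a at 15 min is not drawn because WT was listed at 0. Bag3 and Hspe1 have points on both sides of 0. In every row with a 120 min point, of inducible and constitutive genes alike, that point lies farthest right.

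Levels were also set side by side across time within each line. The tables may have been normalized separately and hold no value per sample, so these changes have no test. They are log2 of FPKM plus 1 at the later time over 0 min, for genes in both tables. Such genes were called different between the lines at both times, so shares and ranks among them describe that selected set. Hsp90aa1, not listed at 120 min, is absent from the 120 min changes. From 0 to 15 min 0 of 8 genes were up or down by 2-fold in S51A or in WT. Of 6369 genes, 0.0471% were up and 0.0157% down by 2-fold in S51A, and 0% were up and 0.0628% down in WT. The largest was Hspa1b in WT, at a log2 change of 0.51, which was 0.25 in S51A.

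From 0 to 120 min the inducible HSP70 genes stood out by their change in S51A. Of 7 genes in both tables, 4 were up at least 2-fold in S51A (Hspa1a, Hspa1b, Hspb1 and Hspe1), where 8.34% of 4328 genes were. Hspb1 and Hspe1 have short transcripts, and of 200 genes with transcripts of up to 1000 bases 70.5% were up by 2-fold in S51A. In WT 1 was (Hspa1b), where 0.439% of genes were. None of the 7 was down by 2-fold in either line, where 9.94% of genes were in S51A and 2.06% in WT. The log2 change of Hspa1b was 3.65 in S51A, which was number 2 of 4328 genes, and 1.92 in WT, which was number 4. Hspa1a changed by 3.62 in S51A (number 3) and 0.30 in WT, a value that the added 1 FPKM holds down because WT was close to 0 at both times. The ratio of FPKM without it was 19.4 in S51A and 6.19 in WT for Hspa1a, and 13.5 in S51A and 6.11 in WT for Hspa1b.

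The other genes had smaller changes over 120 min than the HSP70 pair in S51A. Hspb1 was at 2.38 times its 0 min FPKM in S51A and 1.46 times in WT. Its log2 change with 1 FPKM added was 1.23 in S51A (number 222 of 4328 genes) and 0.52 in WT (number 77). In WT that was above the 0.30 of Hspa1a, a value that the added 1 FPKM holds down. Dnajb1 was at 1.89 times in S51A and 1.06 times in WT. Hspe1 was at 3.46 times in S51A and 0.953 times in WT, Hspd1 at 1.52 times in S51A and 1.06 times in WT, and Hspa8 at 1.11 times in S51A and 1.04 times in WT. From 15 to 120 min 4 of 8 genes were up at least 2-fold in S51A, the same 4 as from 0 min, and 1 in WT (Hspa1b), where 4.62% of 4962 genes were in S51A and 0.524% in WT. Bag3 was not listed at 0 min, and its 120 min FPKM was 1.67 times its 15 min FPKM in S51A and 0.824 times in WT. Hspa8 thus kept almost the same level in each line, and its difference between the lines was already there at 0 min.

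**Figure D3:**
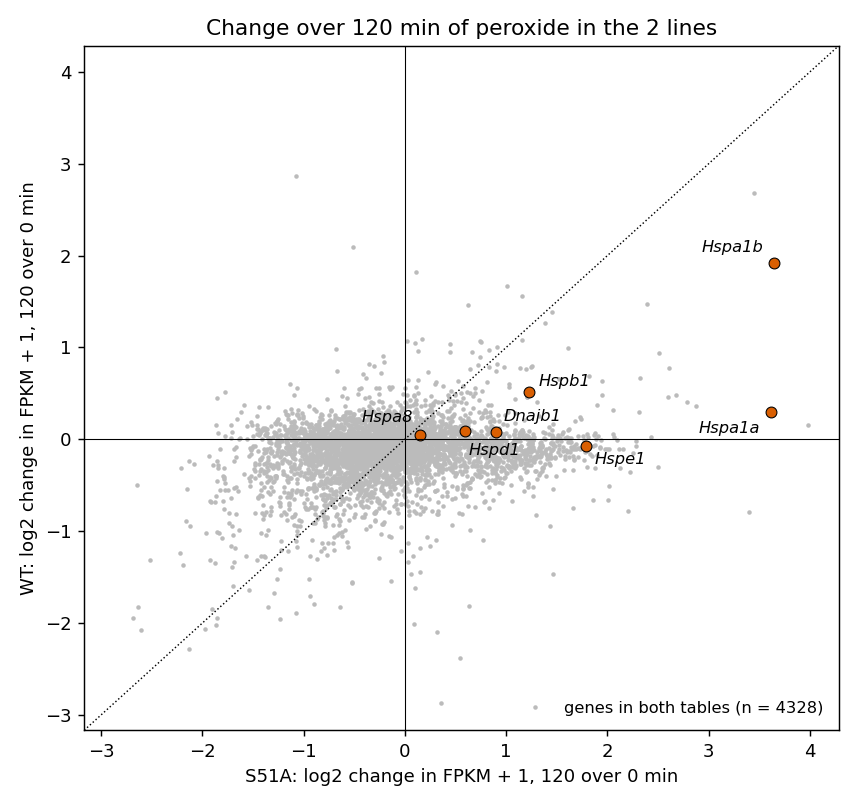
Log2 change of FPKM plus 1 from 0 to 120 min in S51A (x axis) and WT (y axis) for 4328 genes in both tables (grey) and the 7 chaperone genes among them (orange); the dotted line marks equal change. Hspa1b is high in both lines, at 3.65 in S51A and 1.92 in WT, while Hspe1 and Dnajb1 lie near 0 in WT.

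The inducible copy of HSP70 can be set against the constitutive one on the FPKM scale. Hspa1b stood at 1.62% of the Hspa8 level in S51A and 0.0977% in WT at 0 min. At 120 min it stood at 19.6% of the Hspa8 level in S51A and 0.576% in WT. Reads of either gene that match other genes could alter these shares, and their part was not tested. Because Hspa1a and Hspa1b may share reads, their sum is given too, although reads counted for both genes or for neither would also alter it. The sum was 13.9 FPKM in S51A and 1.24 FPKM in WT at 0 min, 17.3 FPKM in S51A and 2.13 FPKM in WT at 15 min, and 196 FPKM in S51A and 7.60 FPKM in WT at 120 min. These are differences of 11.2-fold, 8.13-fold and 25.8-fold, and the 120 min sum was 14.1 times the 0 min sum in S51A and 6.11 times in WT.

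Of the 75-base windows of the longest GENCODE M21 protein-coding transcript, 55.8% of those of Hspa1b occurred unchanged in Hspa1a. The reads were 75 bases long, so such reads cannot be assigned by their sequence alone. Of the Hspb1 windows 47.3% occurred in the pseudogene Hsp25-ps1, and of the Hspa8 windows 68.0% occurred in 9 other genes. The share was 53.1% for Hsp90aa1, 33.7% for Hspd1 and 23.7% for Hspe1. It was 0% for Dnajb1, Hsph1 and Bag3. No source used here says how the authors treated reads with several matches.

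Transcript length went with the shift of the S51A to WT ratio between 0 and 120 min. Across 4102 genes, Pearson's r of the shift with log2 length was -0.65 and Spearman's rho was -0.65; these are genes of the same libraries and not independent replicates. In 4 equal groups of these genes by length, the median log2 change of FPKM plus 1 from 0 to 120 min differed between groups mainly in S51A. From short to long it was 0.53, -0.08, -0.32 and -0.68 in S51A, and -0.12, -0.10, -0.12 and -0.06 in WT. The length ranges that follow were chosen after the values were seen. In 200 genes with transcripts of up to 1000 bases the median shift was 1.43 on the log2 scale, with 10th and 90th percentiles of 0.758 and 1.92, and 70.5% of them were up at least 2-fold in S51A. Hspe1, at 774 bases, had a shift of 1.87, and 25 of those 200 genes, itself included, had one as large. Hspb1, at 930 bases, had a shift of 0.70, under that median, with 183 of the 200 at least as high. The shift of Hspe1 thus lay between those percentiles and that of Hspb1 below them. The part of transcript length in the 120 min values of Hspe1 and Hspb1 was not tested.

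The HSP70 pair and Dnajb1 have longer transcripts, for which the median shift was lower. In 891 genes of over 2000 and up to 3000 bases the median shift was 0.10, with 10th and 90th percentiles of -0.66 and 0.87. Hspa1a had a shift of 1.66 (12 of the 891 at least as high, itself included), Hspa1b of 1.13 (58) and Dnajb1 of 0.84 (100). The Hspa1a shift rests on WT values close to 0, at 0.0467 FPKM at 0 min and 0.289 FPKM at 120 min. Hspd1 had a shift of 0.51 (199) and Hspa8 of 0.10 (451). The shifts of Dnajb1, Hspd1 and Hspa8 lay between those percentiles, and those of the HSP70 pair lay above them. In S51A itself, 4.26% of these 891 genes were up at least 2-fold from 0 to 120 min. The Hspa1b change in S51A was matched or passed by 2 of the 891 genes, itself included, and that of Hspa1a by 3. The part of transcript length in the 120 min values of these genes was not tested.

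**Figure D4:**
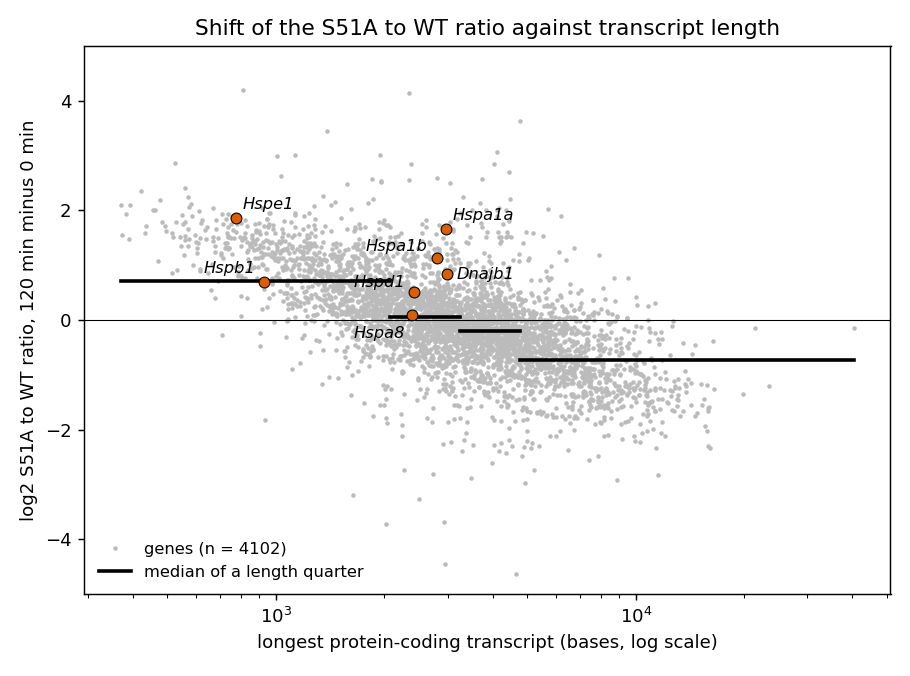
Difference of the log2 S51A to WT ratio, 120 min minus 0 min (y axis), against transcript length (log x axis) for 4102 genes (grey), with the 7 chaperone genes in orange and black bars at the median of 4 equal groups of genes by length; 1 gene lies outside the drawn range. The medians are 0.72, 0.05, -0.19 and -0.73 from short to long, and Hspe1 and Hspb1 lie among the short transcripts. Each of the 7 chaperone genes lies above the median of its group except Hspb1, at 0.70.

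The transcript of HSF1 itself was lower in S51A at each time. Hsf1 was at 34.3 FPKM in S51A and 46.9 FPKM in WT at 0 min, 34.3 FPKM in S51A and 46.5 FPKM in WT at 15 min, and 28.8 FPKM in S51A and 41.9 FPKM in WT at 120 min (highest q = 0.00586 in the authors' deposited tables). Hsbp1, which encodes a small protein that binds HSF1 and dampens it, was higher at each time. It was at 107 FPKM in S51A and 53.8 FPKM in WT at 0 min, 116 FPKM in S51A and 44.9 FPKM in WT at 15 min, and 199 FPKM in S51A and 58.9 FPKM in WT at 120 min. Hsf2, Hsf4 and Hsf5 were not listed.

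The wider chaperone network was counted over 8 lists of 90 further genes. At 0 min 16 of 60 listed genes were higher and 44 lower, at 15 min 20 of 64 were higher and 44 lower, and at 120 min 21 of 38 were higher and 17 lower. The share that was higher was thus 26.7%, 31.2% and 55.3%, beside 49.6%, 49.9% and 50.9% of all listed genes. This makes the 120 min share close to the background. The genes listed differ between times, so these shares do not follow the same genes. Of 26 listed at both 0 and 120 min, 3 went from lower to higher and 0 the reverse. Of all 4328 genes in both tables, 10.4% went from lower to higher and 7.74% the reverse. All 12 listed subunits of the TRiC chamber and of prefoldin, which fold new actin and tubulin, were lower at 0 min (median log2 ratio -0.82, beside -0.27 for all listed genes). At 15 min 12 of 13 were lower. At 120 min 2 were listed, both higher: the prefoldin subunit gene Pfdn5, with 338 FPKM in S51A against 163 FPKM in WT, and the TRiC subunit gene Cct2, at 771 FPKM in S51A and 534 FPKM in WT.

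HSP70 cochaperones were lower for 9 of 9 listed genes at 0 min, 8 of 8 at 15 min and 4 of 5 at 120 min, where 50.4%, 50.1% and 49.1% of all listed genes were lower. Bag2, a cochaperone that restrains ubiquitination of HSP70 clients, was at 29.9 FPKM in S51A and 50.2 FPKM in WT at 0 min, and at 26.2 FPKM in S51A and 44.3 FPKM in WT at 120 min. Bag4 was at 8.51 FPKM in S51A and 14.3 FPKM in WT at 120 min. HSP90 genes and their cochaperones were lower for 9 of 10 at 0 min and 9 of 11 at 15 min, and were divided at 120 min, with 3 higher and 3 lower. Hsp90ab1, the constitutive cytosolic HSP90 gene, was at 1552 FPKM in S51A and 2592 FPKM in WT at 0 min but was absent from the 120 min list. Hsp90b1, the HSP90 gene of the endoplasmic reticulum, was the exception at 0 min, at 1067 FPKM in S51A and 564 FPKM in WT. Fkbp5, an HSP90 cochaperone gene, was lower at each time, at 14.5 FPKM in S51A and 30.9 FPKM in WT at 120 min.

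Relatives of HSP70 were divided much as all listed genes were, with 4 higher and 3 lower at 0 min and 3 of each at 120 min. Hspa9, the mitochondrial HSP70 gene, was lower, at 221 FPKM in S51A and 488 FPKM in WT at 0 min and 288 FPKM in S51A and 576 FPKM in WT at 120 min. Hspa2, an HSP70 gene known from the testis, was higher, at 9.85 FPKM in S51A and 3.94 FPKM in WT at 120 min. Genes of the HSP40 family were higher for 7 of 11 at 0 min, 8 of 12 at 15 min and 7 of 10 at 120 min, beside 49.6%, 49.9% and 50.9% of all listed genes. Dnaja4 had the largest difference there, at 7.52 FPKM in S51A and 1.30 FPKM in WT at 120 min, and Dnajb14 was at 6.32 FPKM in S51A and 3.32 FPKM in WT.

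Among the other genes counted here as small heat shock genes, 1 was higher and 1 lower at 0 min, and 2 were higher and 1 lower at 120 min. Cryab, which encodes αB-crystallin, a partner of HSP27, was on the opposite side from Hspb1, at 40.8 FPKM in S51A and 134 FPKM in WT at 0 min and 61.0 FPKM in S51A and 116 FPKM in WT at 120 min. Hspb11, counted among them by its symbol only, was at 52.7 FPKM in S51A and 29.7 FPKM in WT at 120 min. Of the remaining list, the mitochondrial disaggregase gene Clpb and the mitochondrial protease gene Lonp1 were lower at each time. At 120 min Clpb was at 9.58 FPKM in S51A and 14.9 FPKM in WT, and Lonp1 at 43.4 FPKM in S51A and 66.3 FPKM in WT.

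**Figure D5:**
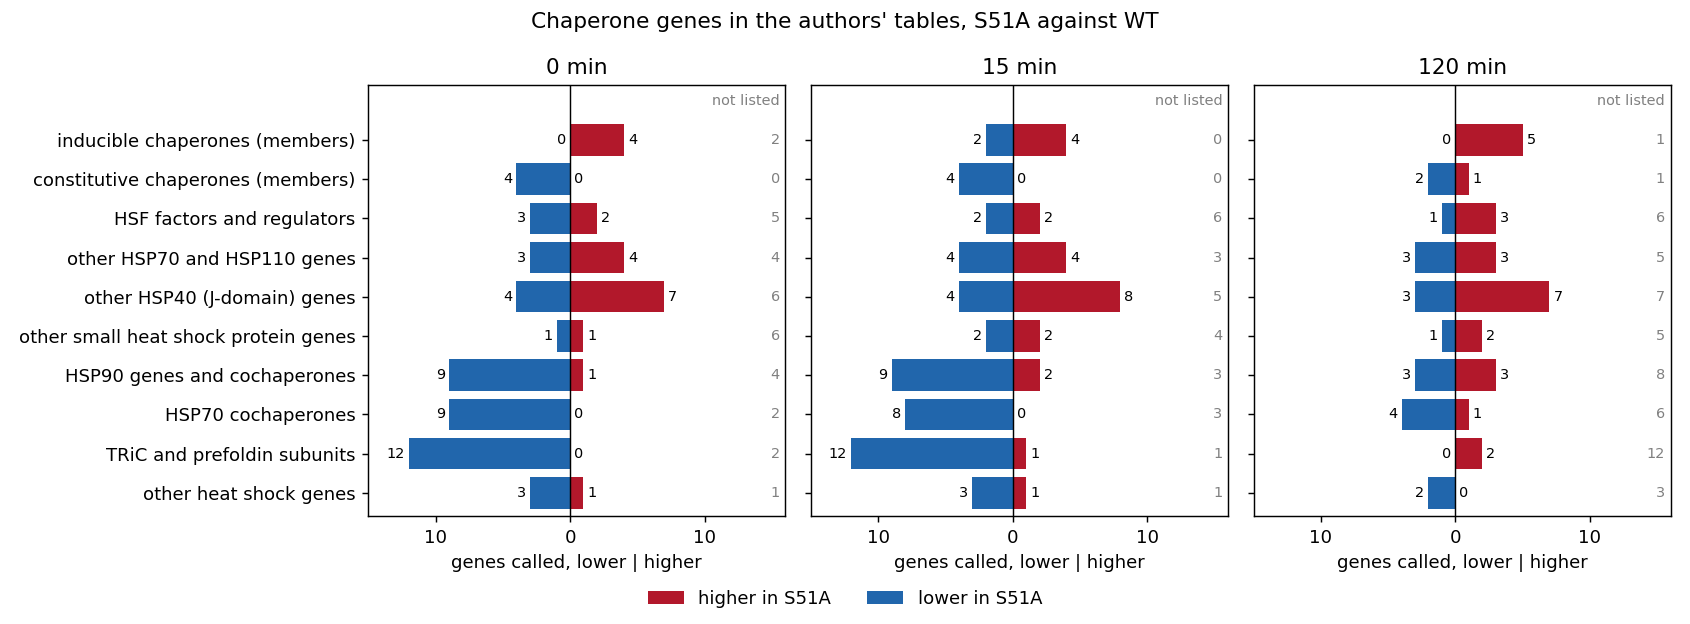
Number of genes of each chaperone list that the authors' tables give as higher (right, red) or lower (left, blue) in S51A than in WT at 0, 15 and 120 min, with the number not listed in grey. All 12 listed TRiC and prefoldin genes lie on the lower side at 0 min, and 2 of 14 are listed at 120 min.

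The genes whose profile over the 6 groups was most like that of Hspa1b were taken by the smallest root mean square difference of centred log2 values of FPKM plus 1, among 3283 genes listed at all times with at least 5 FPKM in a group. Hspa1a came first (difference 0.54, Pearson r = 0.97 over 6 groups). Hspa1a and Hspa1b may share reads, and the part of shared reads in this likeness was not tested. Il6, an interleukin gene, came next (difference 0.85, r = 0.92), at 56.5 FPKM in S51A and 1.79 FPKM in WT at 120 min. Pmaip1, a cell death gene, followed (difference 0.90, r = 0.94), at 17.6 FPKM in S51A and 1.79 FPKM in WT at 120 min. Fas, a death receptor gene, had a difference of 0.92 (r = 0.90) and Cebpd, a transcription factor gene, of 0.96 (r = 0.91). Of the other chaperone genes here, Hspb1 ranked 16 (difference 1.09, r = 0.96) and Dnajb1 ranked 334 (difference 1.57, r = 0.96). The constitutive genes were less alike: Hspe1 ranked 1374 (r = 0.26), Hspa8 ranked 1794 (r = -0.66) and Hspd1 ranked 2259 (r = -0.50). Hsph1, Bag3 and Hsp90aa1 were not listed at all times and have no rank. The difference depends on both the size and the shape of a profile, while r reads its shape only.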

How the data were processed

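The submitters' processing notes name STAR, Cufflinks and Cuffdiff and the build mm10, with no version or role. Per the file headers, the authors deposited for each time the log2 of the FPKM in S51A and in WT, the log2 ratio and a q-value, with 1 column per group. How the q-value was adjusted is not stated in them. In the deposited tables the ratio equals S51A minus WT of the log2 columns within 0.01 where neither is at 0, and a log2 value of -10 stands for a group listed at 0. Every entry is marked significant. 1 column of values per table, a quotient of the log2 columns, was not used. Each deposited start had 1 added to it, after which 47.8% of genes matched by symbol to RefSeq had the same start at 0 min, against 4.01% without.

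FPKM and folds were recomputed from the log2 columns with Python 3.11.15, pandas 2.3.3 and NumPy 2.4.6. Calls are the authors' own, and no test across samples could be made. Changes over time used a pseudocount of 1 FPKM. From each further list, the text names up to 2 genes with the largest 120 min ratio and at least 5 FPKM, plus Hsf1 and Hsp90ab1. A gene that this rule also selects is not reported here. The members and lists were chosen with earlier results of these data known. Alternatives were a minimum fold of 2, a q-value of at most 0.01, at least 5 FPKM, the HSP70 pair as 1 gene, other pseudocounts and centring.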

Additional observations from a re-analysis of the deposited data

How the results depend on the processing

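The counts of chaperone genes listed as higher in S51A were 4, 4 and 6 at 0, 15 and 120 min. They were 3, 3 and 4 with a minimum fold of 2, 3, 4 and 6 with a q-value of at most 0.01, 3, 3 and 6 with at least 5 FPKM in the higher line, and 3, 3 and 5 with the HSP70 pair as 1 gene. The count of genes up at least 2-fold from 0 to 120 min in S51A, 4 at first, was 4 with a pseudocount of 0.1 FPKM, 5 after centring and 6 with a minimum fold of 1.5. In WT it was 1, and 2 with a pseudocount of 0.1 FPKM, which adds Hspa1a. 1 value near 0 changed sign: the log2 change of Hspe1 in WT from 0 to 120 min was -0.07, and 0.03 after centring. The values that moved by over 1.5 times, 11 of 146, were all of Hspa1a and Hspa1b and came from the pseudocount: the log2 ratio of Hspa1a at 0 min was 5.08 without a pseudocount and 1.30 with 1 FPKM. With a pseudocount of 1 FPKM, chosen after seeing the data, the shift of the ratio from 0 to 120 min was 3.32 for Hspa1a and 1.73 for Hspa1b.

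No paired analysis was possible because the tables give 1 value per group. Leaving out each replicate was not run on the same ground. Depth is unknown, so values near 0 FPKM have no interval.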

Other observations

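Genes that stood on opposite sides at 0 and 120 min were counted as a further description. Of 4328 genes in both tables, 449 (10.4%) were lower in S51A at 0 min and higher at 120 min, and 335 (7.74%) the reverse. Among the chaperone genes described above 1 of 7 did the first, Hspe1, and 0 the reverse. Genes of the further lists that did the first included the ubiquitin gene Ubb and the HSP70 exchange factor gene Bag1, named after their values were seen. Ubb was at 153 FPKM in S51A and 98.4 FPKM in WT at 120 min, and at 67.6 FPKM in S51A and 93.1 FPKM in WT at 0 min. Bag1 was at 214 FPKM in S51A and 152 FPKM in WT at 120 min, and at 116 FPKM in S51A and 153 FPKM in WT at 0 min.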
